A study of Homo sapiens with 4 samples.

Results

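The genes described here were at least 2-fold lower with tetracycline in both of a pair of prostate cancer cell lines, TR9-MeTA14 and TR15-MeTA5. Both lines were derived from LNCaP, a human prostate cancer line of luminal, androgen-responsive type, and both carry a Tet repressor and a stably transfected construct from which tetracycline induces NFκB (AD)-MBD. This fusion joins the transcription activation domain of NFκB to a methyl-CpG-binding domain. It is the tool of methyl-CpG targeted transcriptional activation (MeTA), which brings an activator to methylated promoters and is meant to switch silenced genes on. The 4 arrays were TR9-MeTA14 without tetracycline (-Tet), TR9-MeTA14 with tetracycline for 4 days (+Tet), TR15-MeTA5 -Tet and TR15-MeTA5 +Tet, with 1 array each. All 4 samples carried the construct and were grown in the same serum-containing medium, and no array measured a line without the construct. Effects of tetracycline itself and of the induced protein therefore cannot be told apart in these data. Each line is 1 stable transfectant.

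Members were chosen by their measured change. A probe was a member when all 4 arrays measured it well above background and its log2 signal, scaled on the 75th percentile of each array, was at least 1 lower in +Tet than in -Tet in both lines. The arrays hold 34127 non-control probes, of which 19298 passed the background filter on every array, and 136 of those met the rule. These included 113 probes with a gene name, from 104 of the 12706 genes compared, and 23 without one. Of the named member probes, 102 were from protein-coding genes, 6 from long non-coding RNAs, 4 from transcribed pseudogenes and 1 from a ribosomal RNA gene. Since the rule used the fold changes, these are given below as a description, and with 1 array per condition no difference has a replicate check or a test. Signals are given as scaled signals, the processed signal brought to a common 75th percentile of 555 on every array, in arbitrary units. Each signal stands for RNA from a whole culture, so that less RNA per cell and fewer cells of a kind cannot be told apart.

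Some background helps in reading the members. Cells short of amino acids raise the transcription factor ATF4, which drives genes for amino acid synthesis and uptake. Cells short of sterols raise SREBP, which drives cholesterol and fatty acid synthesis, and INSIG1 restrains it. Hypoxia-inducible factor drives glycolytic enzymes, androgen drives the kallikreins of the luminal prostate cell, and the genes of mitosis are switched on late in each cell cycle.

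The 4 arrays measured between 20560 and 24217 probes well above background and had no saturated spot. The 75th percentile of the signal was 617 and 777 in TR9-MeTA14 and 367 and 542 in TR15-MeTA5, -Tet and +Tet, respectively, so that scaling divided the +Tet to -Tet ratios by 1.26 and 1.48. Replicate spots gave an SD of 0.0873 for a log2 ratio, which covers error within an array only. Of 12 markers of LNCaP luminal cells, 11 were well above background on all 4 arrays, whereas none of 3 basal markers was on any. Among markers of other cells, 2 of 3 leukocyte, 2 of 3 endothelial and 1 of 4 stromal genes were measured on all 4 arrays. The macrophage marker CD68 was one of them and had higher processed signals with tetracycline (186 and 1338 in TR9-MeTA14, 332 and 1225 in TR15-MeTA5); its part in the results was not tested. PYCARD, used as a check of induction, was not above background without tetracycline and had processed signals of 1769 and 971 with it. TNFRSF25, a further check, had processed signals of 306 and 6767 in TR9-MeTA14 and of 167 and 3033 in TR15-MeTA5, -Tet and +Tet, respectively.

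Lower signals were far more frequent in TR9-MeTA14 than in TR15-MeTA5. In TR9-MeTA14, 3027 of the 19298 probes (15.7%) were at least 2-fold lower with tetracycline. In TR15-MeTA5 only 306 (1.59%) were. The 136 members made up 0.705% of the probes compared, 4.49% of the probes lower in TR9-MeTA14 and 44.4% of those lower in TR15-MeTA5. As the rule used both contrasts, nothing is read from these shares. Probes past the same threshold upward in both lines numbered 896, 6.59 times as many. The members' median log2 fold change was -1.85 in TR9-MeTA14, ranging from -5.08 to -1.01, and -1.16 in TR15-MeTA5, ranging from -3.36 to -1.01. The median over all probes compared was -0.15 and -0.19, respectively. In TR15-MeTA5 most members lay close to the threshold: 96 of 136 were between 2-fold and 2.5-fold lower, and 3 were at least 4-fold lower. In TR9-MeTA14, 57 were at least 4-fold lower. The larger decrease was in TR9-MeTA14 for 119 members and in TR15-MeTA5 for 17.

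**Figure D1:**
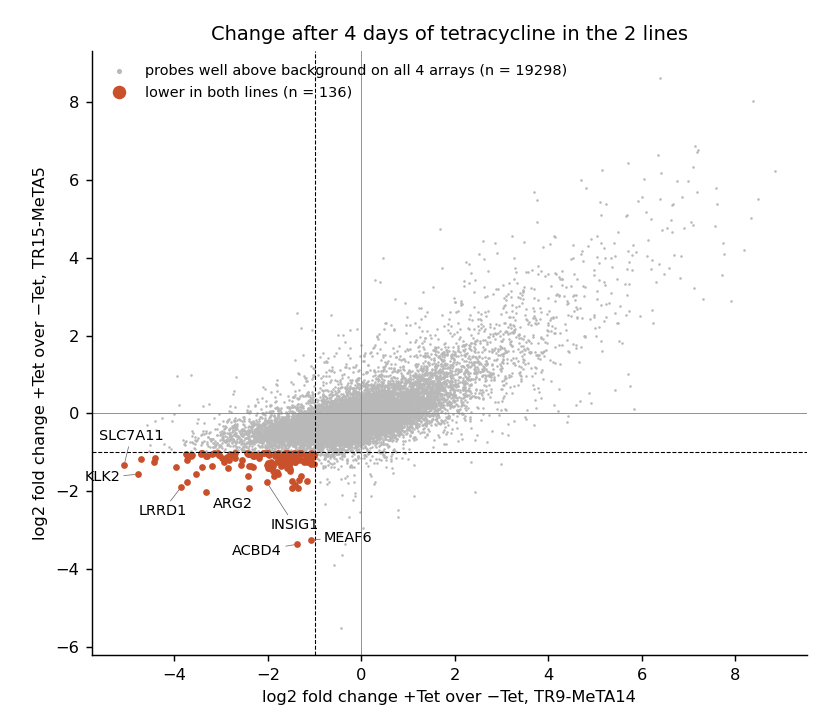
Log2 fold change (+Tet over -Tet) of each probe well above background on all 4 arrays, in TR9-MeTA14 (horizontal) and TR15-MeTA5 (vertical). The 136 members (orange) fill the corner beyond -1 on both axes (dashed lines). They spread down to -5.08 in TR9-MeTA14 but mostly lie just below -1 in TR15-MeTA5, apart from ACBD4 and MEAF6 at -3.36 and -3.25.

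Because so many members lay near the threshold in TR15-MeTA5, membership depended on how the arrays were scaled. With the median of the compared probes as the reference, 131 of the 136 members stayed at least 2-fold lower in both lines. With quantile normalization 110 did, with the percentile taken over spots 92, with cyclic loess 76, and with normexp background correction and quantile normalization 38. With scaling on 8 spike-in probes only 21 did, and 14 did in the signals as deposited, a comparison added after the data were seen. Spike-in scaling moved the median log2 fold change of all probes in TR15-MeTA5 from -0.19 to 0.25. Under it, 1431 probes were higher and 21 lower in both lines, so that lower probes made up 1.45% of those changed alike, against 13.2% as reported here. A total of 12 member probes from 10 named genes (ARG2, LRRD1, INSIG1, TRIB3, PRSS36, DEFB132, KLK2, SLC18B1, ACBD4 and MT1G) and from unnamed probes met the rule under every one of the 6 other scalings. For the 136 member probes in both lines, all 1632 log2 fold changes recomputed under these 6 scalings were below 0. The rule had chosen large decreases on the same arrays, so that this sign is no independent check.

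**Figure D2:**
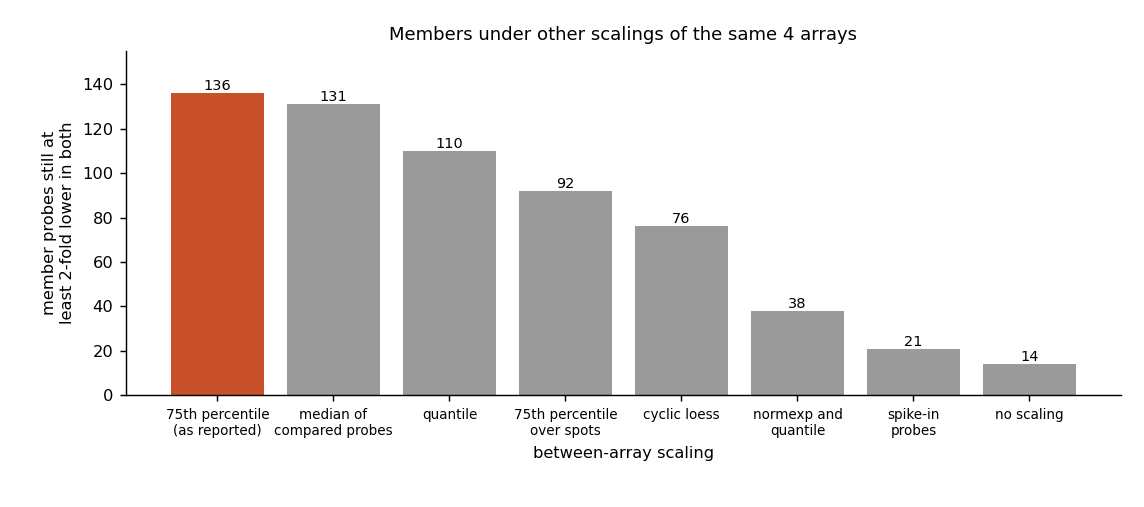
Number of the 136 member probes that remained at least 2-fold lower in both lines (vertical axis) under each way of scaling the 4 arrays (horizontal axis). The bars go down from 136 to 21 with spike-in probes and 14 without scaling.

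The 12 genes with the largest change in the line that changed less were ARG2, LINC01061, LRRD1, INSIG1, TRIB3, PRSS36, DEFB132, KLK2, PLCB4, TMEM164, PLEKHA5 and DOCK8. ARG2, the mitochondrial arginase, which splits arginine into ornithine and urea, led them. Its scaled signal was 4485 in TR9-MeTA14 -Tet, 448 in TR9-MeTA14 +Tet, 12818 in TR15-MeTA5 -Tet and 3159 in TR15-MeTA5 +Tet. ARG2 was thus 10.0-fold and 4.06-fold lower with tetracycline, in TR9-MeTA14 and TR15-MeTA5, respectively, and its signal was higher in TR15-MeTA5 than in TR9-MeTA14 under both treatments. LRRD1, a leucine-rich repeat gene, went from 542 to 37.6 in TR9-MeTA14 and from 1430 to 388 in TR15-MeTA5. PRSS36, a serine protease gene, went from 578 to 159 and from 1186 to 391. DEFB132, a beta-defensin gene, was 11.7-fold lower in TR9-MeTA14 and 2.96-fold lower in TR15-MeTA5. By the probe plotted for each of the 12 genes, both +Tet signals were below both -Tet signals. This did not hold for other probes of LINC01061, TMEM164 and PLEKHA5. Some of the 12 were dim. DOCK8 had scaled signals of 41.1 and 14.8 in TR9-MeTA14 and of 90.3 and 24.1 in TR15-MeTA5. PLEKHA5, a pleckstrin homology protein, had 98.4 and 35.4, and then 179 and 53.6. Of all members, 43 (31.6%) had a lowest processed signal under 50, against 19.6% of all probes compared.

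**Figure D3:**
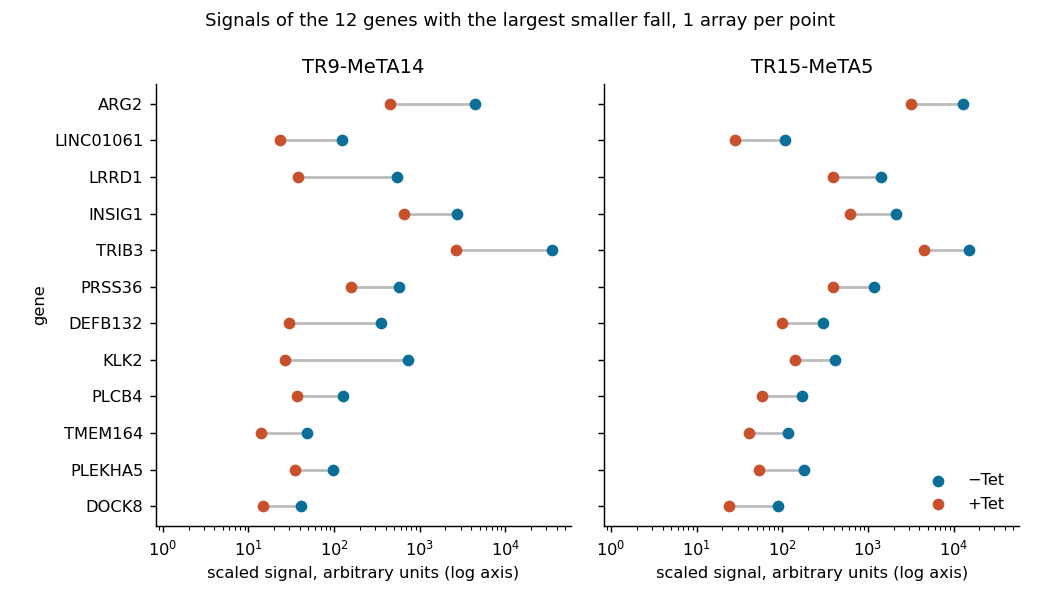
Scaled signal (arbitrary units, log axis) of the 12 leading genes without (blue) and with (orange) tetracycline, 1 array per point, TR9-MeTA14 on the left and TR15-MeTA5 on the right. In each row the orange point lies to the left of the blue one, and the gap is wider in TR9-MeTA14 for genes such as TRIB3 and KLK2.

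Of the gene lists, that of the ATF4 and amino acid stress response held the most members. Of 46 genes of this list compared by their brightest probe, 9 were at least 2-fold lower in both lines (19.6%), beside 88 of 12706 genes of any kind (0.693%). The lists were chosen with earlier results of these data known, so that such shares are descriptions only. The 9 were TRIB3, SLC7A11, PHGDH, PSAT1, MTHFD2, PCK2, SLC38A2, STC2 and JDP2. TRIB3, a pseudokinase that ATF4 induces and that restrains it in turn, was among the brightest members. Its scaled signal went from 35226 to 2650 in TR9-MeTA14 and from 15299 to 4506 in TR15-MeTA5, 13.3-fold and 3.40-fold lower. SLC7A11, the cystine and glutamate exchanger that feeds glutathione synthesis, had the deepest decrease of any member in TR9-MeTA14. It went from 3318 to 98.2 in that line, 33.8-fold lower, but only from 628 to 249 in TR15-MeTA5, 2.52-fold lower.

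Members of the list that act in serine and folate metabolism were PHGDH, PSAT1 and MTHFD2. PHGDH, which takes the first step from glycolysis into serine synthesis, went from 24468 to 3180 in TR9-MeTA14 and from 14057 to 5967 in TR15-MeTA5. PSAT1, the next enzyme, went from 22135 to 1797 and from 12793 to 6158. MTHFD2, which passes serine-derived carbon on in the mitochondrial folate cycle, went from 4272 to 321 and from 1627 to 779. In each of these 3 genes the decrease was 7.69-fold or more in TR9-MeTA14 and between 2.08-fold and 2.36-fold in TR15-MeTA5. PCK2, the mitochondrial phosphoenolpyruvate carboxykinase, was 5.87-fold and 2.30-fold lower by its member probe and 2.24-fold and 1.45-fold lower by a dimmer probe. SLC38A2, a neutral amino acid carrier, had 2 member probes, which were 4.56-fold and 3.92-fold lower in TR9-MeTA14 and 2.14-fold and 2.10-fold lower in TR15-MeTA5. STC2, a secreted glycoprotein, was 21.3-fold lower in TR9-MeTA14 (492 to 23.1) and 2.20-fold lower in TR15-MeTA5 (187 to 84.9). JDP2, a repressor of the AP-1 family, went from 7039 to 657 and from 2644 to 1018.

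Most of the list was lower in TR9-MeTA14 and far fewer genes were in TR15-MeTA5. By the brightest probe, 37 of the 46 genes were at least 2-fold lower in TR9-MeTA14 and 9 in TR15-MeTA5, while 42 were lower to any extent in both. Of all 12706 genes, 15.4%, 1.41% and 50.5% were, respectively. The list median log2 fold change was -1.94 and -0.56, against -0.14 and -0.19 for all genes. CHAC1, which degrades glutathione, LARS1, the leucyl-tRNA synthetase, and DDIT4, an inhibitor of mTORC1, came closest to the rule, with log2 fold changes of -0.998, -0.996 and -0.98 in TR15-MeTA5. ATF4 itself was 3.67-fold lower in TR9-MeTA14 and 1.41-fold lower in TR15-MeTA5. One gene of the list, SLC7A5, the large neutral amino acid transporter, was higher in both lines, by 3.89 and 4.27 on the log2 scale. With a cut-off of 1.5-fold, 23 of the 46 genes were lower in both lines, and with spike-in scaling at 2-fold 1 was.

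**Figure D4:**
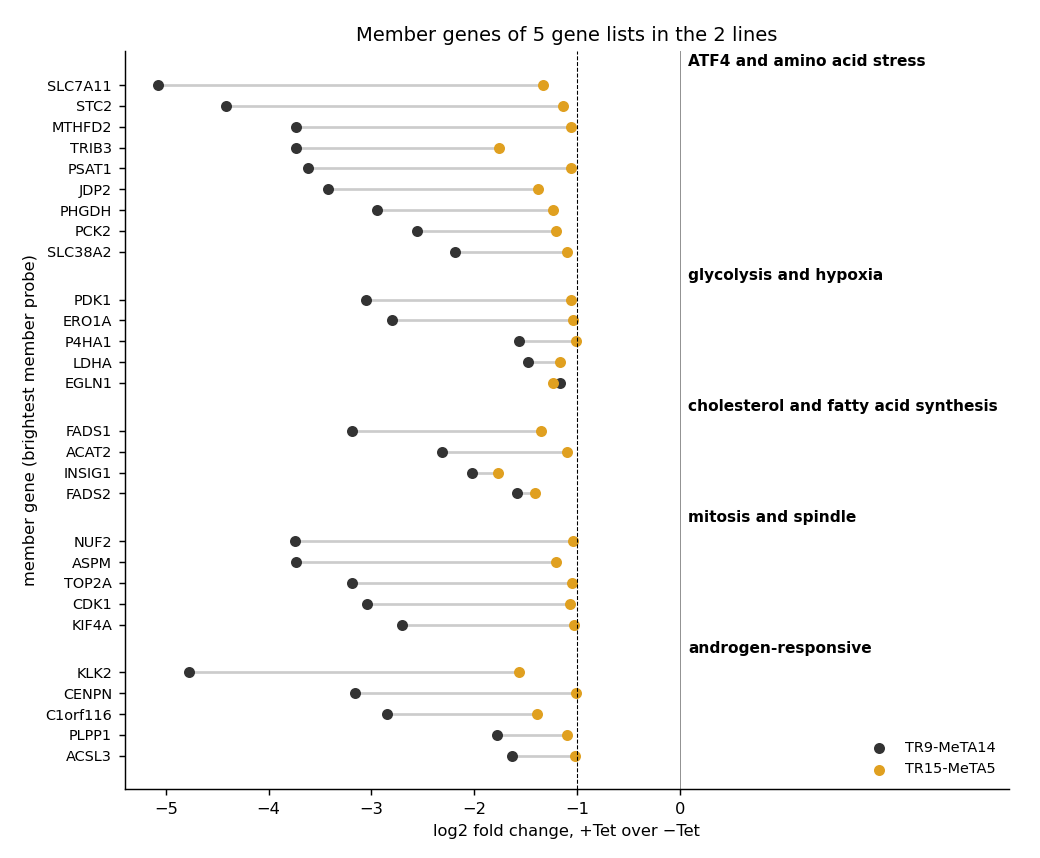
Log2 fold change (+Tet over -Tet, horizontal axis) of the member genes of 5 gene lists, by the brightest member probe of each gene, in TR9-MeTA14 (black) and TR15-MeTA5 (yellow); the dashed line marks the threshold of -1. Nearly all yellow points crowd against that line, while black points reach -5.08 for SLC7A11 and -4.77 for KLK2.

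Genes of glycolysis and the hypoxia response formed another group. Of 34 compared, 5 were members (14.7%, beside 0.693% of all genes): LDHA, PDK1, P4HA1, EGLN1 and ERO1A. LDHA, which turns pyruvate into lactate, was measured by 2 member probes. The brighter went from 19192 to 6894 in TR9-MeTA14 and from 53979 to 24030 in TR15-MeTA5, 2.78-fold and 2.25-fold lower. The dimmer was 2.69-fold and 2.36-fold lower, so the probes gave nearly the same size of change in each line. PDK1, a kinase that inhibits pyruvate dehydrogenase, was 8.32-fold lower in TR9-MeTA14 (1439 to 173) and 2.08-fold lower in TR15-MeTA5 (1471 to 706). ERO1A, the oxidase that drives disulfide bond formation in the endoplasmic reticulum, was 6.97-fold and 2.06-fold lower. P4HA1, a collagen prolyl hydroxylase, was 2.97-fold and 2.02-fold lower. EGLN1, the oxygen-sensing hydroxylase that marks hypoxia-inducible factor for decay, was 2.24-fold and 2.36-fold lower. The lines thus differed in EGLN1 by less than the SD of replicate spots.

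With other scalings the number of genes lower in both lines was between 1 and 5, and with spike-in probes it was 0. The list was mixed in direction. In TR9-MeTA14, 11 of its 34 genes were at least 2-fold lower, beside 15.4% of all genes, and its median of -0.27 was near that of all genes. In TR15-MeTA5 6 were at least 2-fold lower, beside 1.41% of all genes, and the median was -0.62. The 4 genes past the threshold upward in both lines were ADM, EPAS1, PFKFB3 and SLC16A3, the lactate exporter, which was higher by 5.20 on the log2 scale in TR9-MeTA14 and by 2.37 in TR15-MeTA5. ENO1, HK2 and TPI1, all glycolytic enzymes, came closest to the rule, with log2 fold changes in TR15-MeTA5 of -0.90, -0.80 and -0.75. Promoters in RefSeq (GRCh38.p14) were found for all 5 members, and 4 held ACGTG, the core of the hypoxia response element, on either strand within 250 bases upstream of the start site, against 23.5% of 10173 promoters of compared genes. The LDHA promoter is shown because it holds the core repeatedly. The stretch at chr11:18394368-18394487, plus strand, from -195 to -76 of the start site, has CACGTG, which contains the core on both strands, in capitals.
LDHA: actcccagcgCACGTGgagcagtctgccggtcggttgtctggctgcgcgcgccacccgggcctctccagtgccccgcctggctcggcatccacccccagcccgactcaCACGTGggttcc
A match in these letters is a description and not a measured binding site.

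Genes of cholesterol and fatty acid synthesis gave 4 members of 33 compared (12.1%, beside 0.693% of all genes): INSIG1, FADS1, FADS2 and ACAT2. INSIG1, the sterol-sensing anchor that holds SREBP in the endoplasmic reticulum and is itself an SREBP target, changed to a similar extent in both lines. It went from 2702 to 664 in TR9-MeTA14 and from 2125 to 622 in TR15-MeTA5, 4.07-fold and 3.42-fold lower, so that the lines lay close together at both treatments. FADS2, the delta-6 desaturase, was among the brightest members and went from 28323 to 9461 and from 37799 to 14244. FADS1, the delta-5 desaturase, was 9.11-fold lower in TR9-MeTA14 (6327 to 695) and 2.54-fold lower in TR15-MeTA5 (6599 to 2593). ACAT2, which makes acetoacetyl-CoA at the head of the sterol pathway, was 4.98-fold and 2.14-fold lower.

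By the brightest probe, 14 of the 33 genes were at least 2-fold lower in TR9-MeTA14, 6 in TR15-MeTA5 and none was 2-fold higher in both. Of all genes, 15.4% and 1.41% were at least 2-fold lower in the respective lines. The list medians were -0.91 and -0.66. SCD, the stearoyl-CoA desaturase, narrowly missed the rule in TR9-MeTA14, with log2 fold changes of -0.998 there and -1.11 in TR15-MeTA5. CYP51A1, an enzyme of the sterol pathway, had log2 fold changes of -1.17 and -0.88. The search for CACCCCAC, a core of the sterol response element, found no match in the 3 list members with a promoter, and 2.34% of all promoters held it. The INSIG1 promoter is printed because INSIG1 met the rule under every scaling. It holds CACGTG (capitals), an E-box, at chr7:155297758-155297877, plus strand, from -120 to -1 of the start site.
INSIG1: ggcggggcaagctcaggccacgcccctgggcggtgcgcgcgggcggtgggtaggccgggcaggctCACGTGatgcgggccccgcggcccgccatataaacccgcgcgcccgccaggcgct
The letters of this E-box were found in 11.5% of member promoters and in 8.96% of all.

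Genes of mitosis and the spindle had the highest share of genes at least 2-fold lower in TR9-MeTA14 among the 23 lists (95.5%, beside 15.4% of all genes). Of 44 compared by the brightest probe, 42 were at least 2-fold lower in that line, 4 in TR15-MeTA5, and 42 were lower to any extent in both lines, beside 1.41% and 50.5% of all genes. The list medians were -2.68 and -0.71. The members by the brightest probe were CDK1, TOP2A, KIF4A and NUF2 (9.09%, beside 0.693% of all genes). ASPM was a further gene, whose dimmer probe met the rule. CDK1, the kinase that drives entry into mitosis, went from 3700 to 448 in TR9-MeTA14 and from 7005 to 3339 in TR15-MeTA5, 8.25-fold and 2.10-fold lower. TOP2A, the topoisomerase that untangles sister chromatids, went from 313 to 34.3 and from 591 to 286. NUF2, a subunit of the outer kinetochore, went from 650 to 48.5 and from 1194 to 582. For all 3 genes the TR15-MeTA5 +Tet signal was close to the TR9-MeTA14 -Tet signal.

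KIF4A, a chromosome-bound kinesin, was 6.53-fold and 2.04-fold lower, and its dimmer probe had log2 fold changes of -1.66 and -0.77. ASPM, a spindle pole protein, was 13.3-fold and 2.30-fold lower by its member probe, while its brighter probe had log2 fold changes of -3.67 and -0.72. HMMR, NDC80 and KIF20A came closest to the rule, at -0.99, -0.96 and -0.89 in TR15-MeTA5. With a cut-off of 1.5-fold, 32 of the 44 genes were lower in both lines, and at 2-fold none was with cyclic loess, normexp, spike-in scaling or the percentile over spots. No gene of the list of DNA replication and S phase met the rule (46 compared). With 0.693% of all genes meeting it, a list of 46 is too short to read a lack from this. In TR9-MeTA14, 25 of the 46 were at least 2-fold lower (54.35%, beside 15.4% of all genes). The list medians were -1.15 and -0.39.

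The promoters of all 5 mitotic members were found, and 4 of them held TTTGAA, the core of the cell cycle homology region through which late cell cycle genes are repressed in resting cells, against 12.8% of all member promoters and 8.27% of promoters of compared genes. CCAAT, a box often found near it, was also in 4 of the 5, against 39.7% of member promoters and 35.7% of all. These 4 promoters are printed to show how the elements lie. Capitals mark TTTGAA and CCAAT or their reverse complements, TTCAAA and ATTGG, and each sequence is read in the direction of its gene. The stretches are chr10:60778141-60778260, plus strand, from -190 to -71 of the start site for CDK1; chr17:40417977-40418096, minus strand, from -200 to -81 for TOP2A; chrX:70289984-70290103, plus strand, from -120 to -1 for KIF4A; and chr1:197146710-197146829, minus strand, from -160 to -41 for ASPM.
CDK1: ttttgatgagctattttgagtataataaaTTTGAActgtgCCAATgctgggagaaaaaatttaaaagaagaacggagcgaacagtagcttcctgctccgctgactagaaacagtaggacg
TOP2A: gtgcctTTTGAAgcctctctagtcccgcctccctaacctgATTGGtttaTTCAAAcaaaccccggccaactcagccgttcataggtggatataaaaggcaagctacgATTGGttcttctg
KIF4A: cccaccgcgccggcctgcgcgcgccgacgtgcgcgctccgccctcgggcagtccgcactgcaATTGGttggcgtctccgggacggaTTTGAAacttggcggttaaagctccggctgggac
ASPM: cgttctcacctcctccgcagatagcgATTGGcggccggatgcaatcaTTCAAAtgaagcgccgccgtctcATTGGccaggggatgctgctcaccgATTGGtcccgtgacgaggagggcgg
Each of the 4 stretches holds at least 1 copy of each element, and TOP2A holds TTTGAA in both orientations.

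Androgen-responsive genes were the next group. Of 42 compared, 4 met the rule by their brightest probe (ACSL3, C1orf116, CENPN and PLPP1), which is 9.52%, beside 0.693% of all genes. KLK2 met it by its dimmer probe. KLK2, the kallikrein that activates prostate-specific antigen, had one of the largest decreases in TR9-MeTA14. Its member probe went from 724 to 26.5 in that line and from 414 to 140.2 in TR15-MeTA5, 27.4-fold and 2.95-fold lower. The brighter KLK2 probe went from 11157 to 696 and from 12795 to 6478, and just missed the rule in TR15-MeTA5 with a log2 fold change of -0.98. PLPP1, a lipid phosphatase, was among the brightest members and went from 20989 to 6117 and from 46079 to 21487. C1orf116 was 7.19-fold and 2.63-fold lower. CENPN, a centromere protein that androgen also raises, had 2 member probes, 9.91-fold and 8.94-fold lower in TR9-MeTA14 and 2.12-fold and 2.02-fold lower in TR15-MeTA5. ACSL3, which activates long-chain fatty acids, went from 1736 to 560 and from 2840 to 1399.

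By the brightest probe, 29 of these 42 genes were at least 2-fold lower in TR9-MeTA14 and 5 in TR15-MeTA5, and 38 were lower to any extent in both, beside 15.4%, 1.41% and 50.5% of all genes. The number at least 2-fold lower in both was 1 with cyclic loess or normexp and 0 with spike-in scaling. The list medians were -1.50 and -0.65. With spike-in scaling, which moved the median of all genes in TR15-MeTA5 to 0.25, the medians of this list and of the 4 before it stayed below 0 there, between -0.28 and -0.13. KLK3, which encodes prostate-specific antigen, was 3.86-fold and 1.62-fold lower. KCNN2, CAMKK2 and FKBP5 came closest to the rule, with log2 fold changes of -4.54 and -0.98, -0.96 and -1.12, and -3.38 and -0.96 in the respective lines. The list of prostate lineage factors held 1 member among 19 genes compared (5.26%, beside 0.693% of all genes). This was KRT19, a simple epithelial keratin, which went from 945 to 288 and from 2451 to 1054. KRT19P2, a processed copy of KRT19, also met the rule, and a probe may not separate near-identical copies. None of the 4 promoters found for members on the androgen-responsive list held AGAACA, a core of the androgen response element, in the 250 bases searched. Of all promoters 7.68% held it, so that 4 are too few to read a lack from this.

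**Figure D5:**
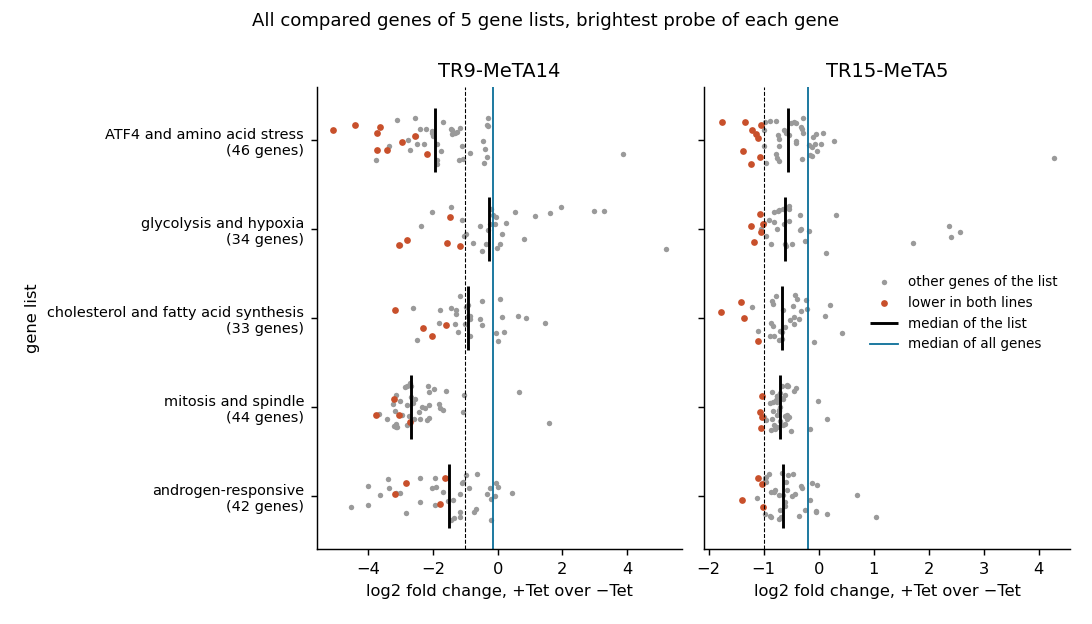
Log2 fold change (+Tet over -Tet, horizontal axis) of all compared genes of 5 gene lists by their brightest probe, in TR9-MeTA14 (left) and TR15-MeTA5 (right, other scale). Orange points are lower in both lines, black bars are list medians, the blue line is the median of all genes (-0.14 and -0.19) and the dashed line marks -1. The bars for mitosis lie at -2.68 and -0.71.

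Single members came from further lists, whose counts stand beside the 0.693% of all genes that met the rule by the brightest probe. Of 19 metallothionein and zinc transport genes compared, 2 met the rule (10.5%). MT1G, a metal-binding metallothionein, went from 18117 to 7182 in TR9-MeTA14 and from 9058 to 2751 in TR15-MeTA5, 2.52-fold and 3.29-fold lower, and its near-identical paralogs may share its signal. MT2A and MT1B were 2.44-fold and 2.11-fold lower in TR15-MeTA5 but 1.95-fold and 1.85-fold lower in TR9-MeTA14. SLC39A8, a zinc importer, was 2.70-fold and 2.01-fold lower, the member nearest to the threshold. UQCRFS1, the Rieske iron-sulfur subunit of respiratory complex III, was the brightest named member. It went from 36238 to 16148 in TR9-MeTA14 and from 46174 to 13912 in TR15-MeTA5. Of 67 oxidative phosphorylation genes it was the only 1 to meet the rule (1.49%). Of 47 histone genes, H1-5, a linker histone, met it by its only compared probe (3.11-fold and 2.18-fold lower). H4C4, a core histone gene, met it by its dimmer probe (4.89-fold and 2.14-fold lower), whereas its brighter probe had log2 fold changes of -0.04 and -0.56. Paralogous histone genes may share these signals. ERO1A was the only member of 25 endoplasmic reticulum genes, of which CRELD2 and HSPA5 were at least 2-fold higher in each line, by 2.02 and 1.11 and by 1.41 and 1.48 on the log2 scale. Of the zinc transport genes, SLC30A2 was higher, by 3.46 and 3.16. The other 13 lists held no member. One of them was the cytosolic ribosomal proteins, in which all 78 genes were lower in both lines to some extent and none by 2-fold in both, with medians of -1.34 and -0.46. Of all genes, 50.5% were lower in both lines to some extent.

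Among the members, the lines differed most in SLC7A11, GNB4 and STC2 on the side of TR9-MeTA14. GNB4, a G protein beta subunit, was 26.2-fold lower in TR9-MeTA14 (1797 to 68.6) and 2.25-fold lower in TR15-MeTA5 (1462 to 649). On the side of TR15-MeTA5 stood MEAF6, ACBD4 and UQCRFS1. ACBD4, an acyl-CoA-binding protein, went from 807 to 78.6 in TR15-MeTA5, 10.3-fold lower, and from 1022 to 395 in TR9-MeTA14, 2.59-fold lower. MEAF6, a subunit of histone acetyltransferase complexes, went from 2188 to 230 in TR15-MeTA5 and from 2040 to 970 in TR9-MeTA14, 9.49-fold and 2.10-fold lower. These were the only members at least 8-fold lower in TR15-MeTA5, and each rests on 1 probe. The other compared probe of ACBD4 had log2 fold changes of -0.46 in TR9-MeTA14 and -0.28 in TR15-MeTA5, and that of MEAF6 -0.89 and -0.44.

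Some member genes had more than 1 compared probe on the same arrays. Where both probes were members, the rule picked both, so that their shared decrease follows from it. The 9 genes with 2 member probes each were ARHGEF26, CENPN, LDHA, LINC00937, PLCB4, SLC18B1, SLC38A2, TARP and TMEM164. SLC18B1, a polyamine transporter, was 3.73-fold and 3.29-fold lower in TR9-MeTA14 and 2.78-fold and 2.56-fold lower in TR15-MeTA5 by its probes. TARP, a transcript of the T-cell receptor gamma locus made by prostate cells, was 21.7-fold lower by one probe and 3.98-fold by the other in TR9-MeTA14, and 2.38-fold and 2.05-fold lower in TR15-MeTA5. A further 30 compared probes belonged to 20 member genes and were not members. Of these, 21 were lower in both lines to any extent, against 50.2% of all probes, and 10 were at least 1.5-fold lower in both, against 7.07% of all probes. Their median log2 fold change was -1.08 in TR9-MeTA14 and -0.44 in TR15-MeTA5.

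The remaining 9 probes were not lower in both lines, and 5 of them were of LINC01061. The LINC01061 member probe went from 124 to 23.4 in TR9-MeTA14 and from 106.5 to 28.3 in TR15-MeTA5. The 5 other probes of this long non-coding RNA, all brighter, had log2 fold changes between 0.23 and 0.33 in TR9-MeTA14 and between 0.31 and 0.71 in TR15-MeTA5, so that its membership rests on 1 probe of 6. PML, the organizer of nuclear bodies, was a member by a dim probe (62.3 to 29.5 and 63.3 to 27.9), whereas its brightest probe was higher in both lines, by 0.52 and 0.69. CREM, a cyclic AMP-responsive factor, was 2.03-fold and 2.11-fold lower by its member probe whereas its other probe had log2 fold changes of -0.05 and 0.02, within the SD of replicate spots. For CSGALNACT1 and PLEKHA5 another probe pointed in opposite directions in the lines.

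Before tetracycline, the members already tended to differ between the lines. The untreated signal was higher in TR15-MeTA5 by a median of 0.35 on the log2 scale, against 0.13 for all probes compared. At least 2-fold higher signals in untreated TR15-MeTA5 were found for 35 members (25.7%), against 6.15% of all probes, and at least 2-fold lower signals for 15, against 4.55%. These -Tet signals also enter the fold changes, so they are not independent of the rule. SLC39A8 is an example, with an untreated scaled signal of 5654 in TR9-MeTA14 and 553 in TR15-MeTA5. TMEFF2, a membrane protein of prostate and brain, differed the other way, with 460 and 4875. Members were also brighter than average before tetracycline, with a median scaled signal of 881 against 404. A member had to stay well above background on the +Tet arrays after its decrease, so that this brightness is not independent of the rule.

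RefSeq promoters were found for 78 of the 104 member genes. In the 300 bases around the start site their median CpG count was 26, the same as for 547 genes higher in both lines and for all 10173 compared genes with a promoter. A CpG count under 5 was found in 8.97% of member promoters and 7.20% of all. Of the short motifs searched on both strands in the 250 bases upstream, TATAAA, the letters of the TATA box, was in 14.1% of member promoters against 5.95% of all. In members the matches lay anywhere from -243 to -27 of the start site and some were reversed. The share is therefore not one of TATA boxes in their usual place. ACGTG, which overlaps CACGTG, was found in 26.9% and 23.5%, AGAACA in 6.41% and 7.68%, and CACCCCAC in 1.28% and 2.34%. TGATGCAA, a core of the ATF4 element, was in none of 78 member promoters and in 0.423% of all. These shares are descriptions of letters in a window, not of factor binding.

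At the edge of the rule the values were continuous. Just inside lay SLC39A8, LY9, a lymphocyte surface receptor, and an unnamed probe, with log2 fold changes in TR15-MeTA5 of -1.01 each. Just outside lay TMTC2 and CHAC1, at -0.999 and -0.998 in TR15-MeTA5, and SCD, at -0.998 in TR9-MeTA14. The gap between these neighbours was far smaller than the SD of 0.0873 from replicate spots.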

How the data were processed

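RNA from 4 cultures was labeled with Cy3 and hybridized to an Agilent whole human genome array. The authors deposited Agilent Feature Extraction output, in which the processed signal is a background-subtracted intensity per spot, not normalized between arrays. The file headers give version 10.7.3.1 and annotation build hg19, the submitters' processing notes 9.5.1. The series table deposited beside them matched these signals on all 44495 rows of each array (within 0.0001%).

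From these values, spots marked as outliers (301 to 395 per array) were left out, log2 intensities of the deposited spots of a probe were averaged, and the 75th percentile over non-control probes was subtracted. Names came from RefSeq gene entries (GRCh38.p14), looked up by RefSeq transcript or else by Ensembl identifier. These matched 25422 of 34127 probes to 1 gene. For gene lists the brightest compared probe stood for a gene. The members and lists were chosen with earlier results of these data known. Genes named were the 12 with the largest smaller decrease, members on a list, those with several member probes or a discordant one, the 5 brightest (by the member probe with the largest smaller decrease), 3 on each side of the threshold, the 3 most different between lines each way, and up to 3 near misses per list. TMEFF2, KRT19P2, ATF4, KLK3, the list genes higher in both lines and the further members in the closing section were chosen after their values were seen. Some genes that the rule names are not reported here. No test was run, since each condition had 1 array. Alternatives covered scaling, background correction, spots, filters and cut-offs. The rule was tested on simulated data with decreases set past the cut-off, so that values near the threshold were not covered. Python 3.11.15, pandas 2.3.3 and limma 3.58.1 in R 4.3.3 were used.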

Additional observations from a re-analysis of the deposited data

Results flagged for a closer look

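For 2 member genes, a probe outside the rule was lower with tetracycline in TR9-MeTA14 and higher in TR15-MeTA5, by more than the error of replicate spots in each. The other CSGALNACT1 probe had log2 fold changes of -1.09 and 0.41, a difference of 1.51. A PLEKHA5 probe had -1.07 and 0.19, a difference of 1.26. Both probes were dim, with processed signals from 34.3 to 68.2 and from 27.9 to 74.0. The differences between the lines were not tested.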

How the results depend on the processing

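The labels give every condition the same replicate number, so that it cannot serve as a block, and the pairing used was that by line. Fold changes were taken within each line, and no model with the line as a block was run, since the folds chose the members. The count of 136 member probes from 104 genes moved to 77 probes from 61 genes with cyclic loess, to 38 from 31 with normexp and quantile normalization, and to 21 from 17 with spike-in scaling. Of the 136 members, 76, 38 and 21 remained, respectively. Without scaling, an alternative chosen after seeing the data, 14 probes from 12 genes were lower in both lines, and all 14 were members. Without a filter on dim probes there were 446 probes from 222 genes. A cut-off of 3-fold left 7 probes from 6 genes, all 7 members, and one of 1.5-fold gave 1365 from 1026. The counts moved by less than 1.5 times with quantile normalization, the median, the percentile over spots, the deposited series table, all spots kept and a filter on the -Tet arrays. As a mean over its probes, LINC01061 had a log2 fold change of 0.0331 in TR15-MeTA5, a change of sign. The cause was not tested. The number of arrays limits the precision, and dim members have the least signal over background.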

Other observations

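Members on none of the gene lists were chosen here after their values were seen, and their values are those of the member probe. KLK15, a kallikrein gene, went from 563 to 67.0 in TR9-MeTA14 and from 213.7 to 106.0 in TR15-MeTA5, and the pseudogene KLKP1 from 793 to 78.7 and from 735 to 345. RDH11, a retinol dehydrogenase of prostate, was 2.91-fold and 2.69-fold lower, close to the same size in both lines. Other such members were LPIN1, a phosphatidate phosphatase (5.34-fold and 2.06-fold lower), ME1, the cytosolic malic enzyme that supplies NADPH (5.42-fold and 2.02-fold), and SGPP1, a sphingosine phosphate phosphatase (7.09-fold and 2.27-fold).

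TBX3, a T-box repressor, went from 924 to 294 and from 2349 to 958. A brighter TBX3 probe had log2 fold changes of -1.29 and -0.84, and so missed the rule in TR15-MeTA5. KAT2B, a histone acetyltransferase, was 3.69-fold and 2.53-fold lower. CDKN2C, an inhibitor of CDK4 and CDK6, was 3.98-fold and 2.57-fold lower. ZWINT, a kinetochore protein, was 2.90-fold and 2.06-fold lower. A brighter ZWINT probe also missed the rule in TR15-MeTA5, with log2 fold changes of -1.70 and -0.72. CCNH, the cyclin of the CDK-activating kinase, was 2.76-fold and 2.24-fold lower. CD47, the cell surface signal that restrains phagocytes, went from 1230.3 to 399 and from 2041 to 957. These values have no replicate.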
